A study of Mus musculus with 12 samples.

Results

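Among the 39017 genes counted in a study of POGZ in 4T1 cells, 38 genes of hypoxia and glycolysis were taken by their symbols, and each symbol matched 1 gene. They are 4 genes of oxygen sensing, 3 of acid and lactate export, 3 of glucose entry, 13 of glycolysis, 2 that set the fate of pyruvate, 3 of mitochondria and their removal, 2 secreted factors, 3 enzymes that modify collagen and 5 other genes induced by the hypoxia-inducible factors. The 4T1 line is a triple-negative mammary tumor line of BALB/c mice, and POGZ is a chromatin-bound zinc finger protein that partners with heterochromatin protein HP1. The series asks how loss of POGZ bears on TGF-beta signaling and metastasis of triple-negative breast cancer.

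There were 4 groups of 3 libraries. The first was made of tumors from cells with the genotype label POGZ KO, in which the gene was ablated. The second was made of tumors from cells titled VC, whose genotype label is POGZ WT. The others were cultures of KO-labelled and of VC-labelled cells. All 4 groups are 4T1 cells and carry no other allele or agent in the labels. The cultures grew in DMEM with 10% FBS, and RNA was taken at 75% confluency. For the tumors, BALB/c mice of 8 weeks received 50k cells in the mammary fat pad, and after 28 days the tumors were removed and flash frozen. The labels do not say whether the 3 libraries of a group came from separate clones or separate cultures, so p-values among cultures measure only the spread between these samples. Tumors also hold cells of the mouse, and in these bulk samples fewer cells of a type and less RNA per cell cannot be told apart.

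Hypoxia-inducible factors are pairs of proteins in which an oxygen-sensitive alpha subunit, made from Hif1a or Epas1, joins the stable partner ARNT. In the presence of oxygen, the prolyl hydroxylases made from Egln1 and Egln3 mark the alpha subunit for destruction, so Hif1a can act without a change in its RNA. Without oxygen the pair binds DNA at hypoxia response elements and turns on glucose uptake, glycolysis, lactate export and blood vessel growth. Tumor cells often run glycolysis in air too, and 4T1 tumors are known to hold poorly oxygenated regions.

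Total counts ran from 4712001 to 13043831 in tumors and from 14724518 to 21863223 in cultures. Pogz RNA, the check of the labels, was higher in the KO-labelled cultures, at 68.3 ± 0.428 CPM (counts scaled to the library total) against 50.3 ± 2.03 CPM in VC-labelled cultures (SD, n = 3 each; log2 fold change 0.45 ± 0.04 SE, edgeR adjusted p = 3.66e-06). In tumors it stood at 107 ± 23.4 and 99.3 ± 11.9 CPM (log2 fold change 0.11 ± 0.20, adjusted p = 0.944). With the median fold of each chromosome taken out, the log2 fold change of Pogz in culture was 0.12 (edgeR adjusted p = 0.0404). RNA over the whole gene does not measure the protein, but Pogz RNA that is not lower in KO-labelled cultures goes against a plain reading of the labels. Every direction here therefore follows the labels alone. Of 8 epithelial markers, Cdh1, Epcam, Krt8, Krt18 and Krt19 were abundant in cultures. Krt5 and Cldn7 had means of 0.0379 and 0.207 CPM in KO-labelled cultures and 0 and 1.07 CPM in VC-labelled cultures. Of the 8, which also include Krt14, 7 were tested in culture. In KO-labelled cultures 2 were called higher and 5 lower by edgeR, against 23.0% and 24.9% of all genes. Their log2 fold changes ran from -2.35 to 0.50. Summed levels of 6 endothelial markers were 138 to 279 CPM in tumors and 0.290 to 1.34 CPM in cultures, those of 6 neutrophil markers 64.9 to 507 CPM and 0.136 to 0.452 CPM, and those of 6 fibroblast markers 2326 to 6541 CPM and at most 30.3 CPM. Most of the fibroblast sum in cultures was Pdgfra, while Dcn and Lum had a mean of 0 CPM in cultures of both labels.

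In culture, most of the hypoxia and glycolysis genes were lower in KO-labelled cells. Of 38 genes, 37 passed the filter on low counts, and 24 fell, 4 rose and 9 were not called (edgeR quasi-likelihood test, Benjamini-Hochberg adjusted p under 0.05 over 15705 genes). Over all genes tested, 24.9% were called lower and 23.0% higher. The median log2 fold change was -0.40 for the members and -0.01 for all genes. Every member called lower had its 3 KO-labelled libraries below the 3 VC-labelled ones, as had Higd1a, and the 4 called higher had all 3 above. Such groups without overlap made up 29.8% of all genes on the lower side and 25.8% on the higher side. Summed over the 38 genes, the level was 4114 to 4216 CPM in KO-labelled cultures and 5239 to 5538 CPM in VC-labelled cultures.

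The position of the genes and the spread assumed both bear on these counts. The median log2 fold change in culture differed between chromosomes, and whether a shift spans a whole chromosome was not tested. On chromosome 6, where the median gene had a log2 fold change of -0.45, lie 4 members, Hk2, Tpi1, Gapdh and Kdm3a. Car9, Slc2a1 and Eno1 lie on chromosome 4, with a median of -0.28. Among the 33 tested members off chromosome 6, 20 fell and 4 rose, with a median of -0.30, and 30 of all 37 lay below the median of their own chromosome, with a median of -0.25 over the 37. When tumors and cultures were put in 1 fit, and so shared 1 estimate of the spread, 7 members were called in culture in place of 28, namely Car9, Hk2, Pfkfb4, Tpi1, Gapdh and P4ha2 as lower and Aldoc as higher. Over all genes the calls dropped as well, to 1501 of 18419 in that fit, against 7523 of 15705 with the cultures alone.

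**Figure D1:**
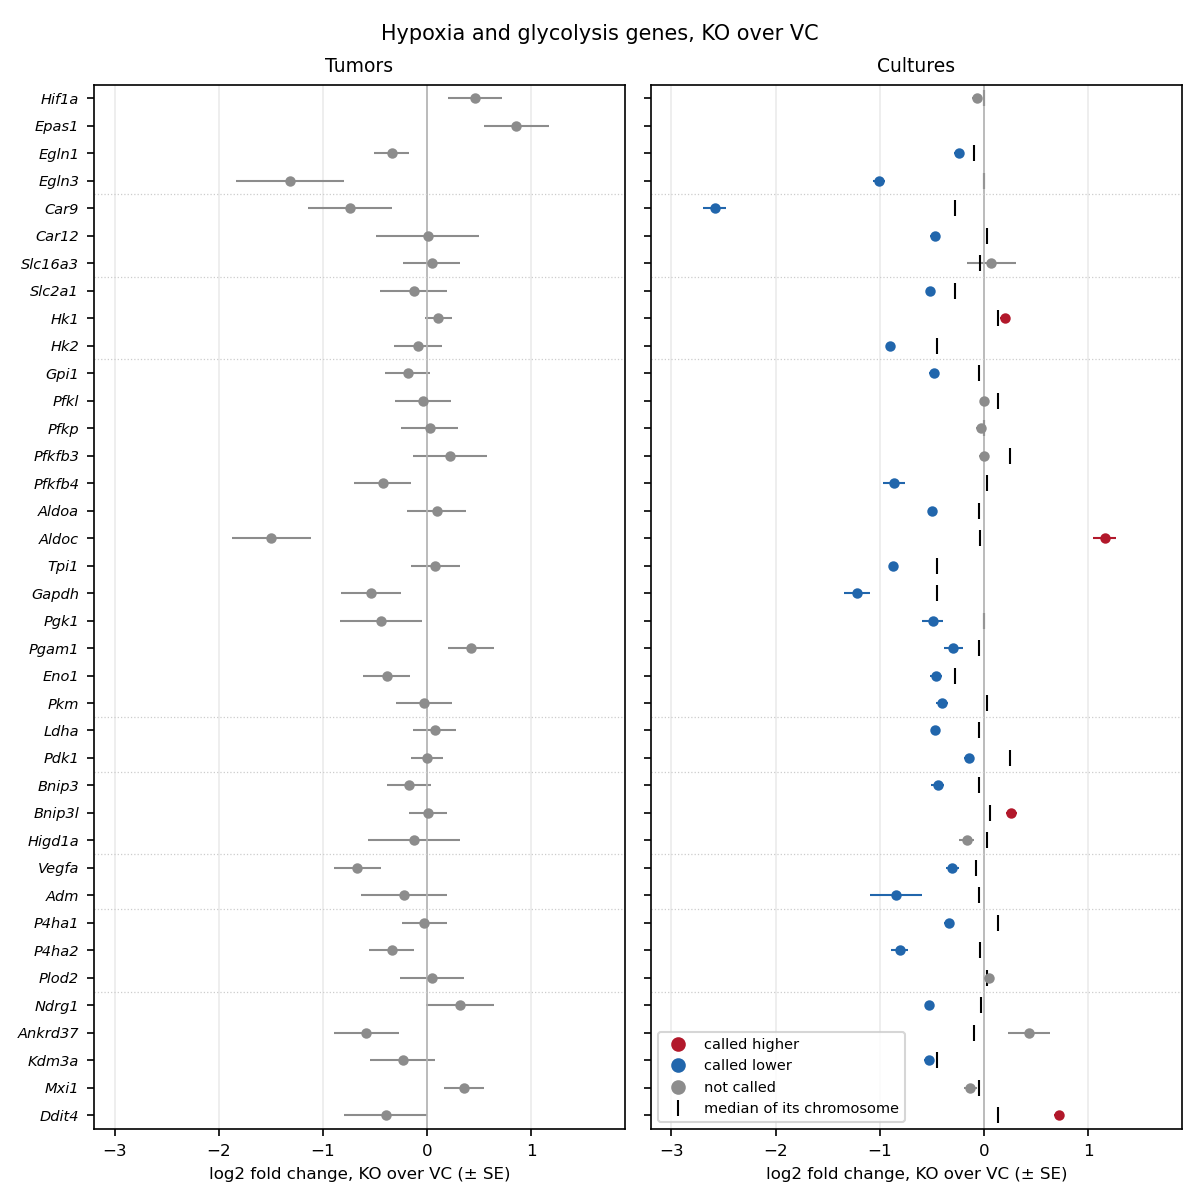
Log2 fold change of KO-labelled over VC-labelled libraries for the 38 genes, in tumors (left) and cultures (right), with bars of ± 1 SE from edgeR. Red marks genes called higher, blue genes called lower and grey genes not called, black ticks give the median of each gene's chromosome in culture, and dotted lines part the roles. In culture 24 genes are blue and 4 red, from Car9 at -2.59 to Aldoc at 1.16, and in tumors none is called. Epas1 had no counts in culture and has no point there.

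Car9, at chr4:43506966-43513729, makes the membrane carbonic anhydrase IX, an enzyme with a part in acid export. It is among the most oxygen-dependent of the known targets of these factors. It stood at 4.81, 4.01 and 4.62 CPM in KO-labelled cultures, against 23.9, 28.5 and 29.2 CPM in VC-labelled cultures. This was the largest fold change of the set, and the ranges were far apart (log2 fold change -2.59 ± 0.11 SE, edgeR adjusted p = 2.83e-09). Car12, the related carbonic anhydrase XII, fell by less, with means of 48.2 ± 0.454 and 67.4 ± 1.04 CPM (log2 fold change -0.47 ± 0.04, adjusted p = 1.50e-06). Slc16a3, the lactate exporter MCT4, was barely counted in cultures, at 1.41 ± 0.134 and 1.36 ± 0.308 CPM, and was not called (log2 fold change 0.07 ± 0.23).

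The oxygen sensors fell while the RNA of their substrate did not pass the test. Egln3, a hydroxylase that is itself induced by the factors it restrains, at chr12:54178981-54203860, had 30.9, 28.3 and 28.1 CPM in KO-labelled cultures and 55.8, 59.1 and 61.6 CPM in VC-labelled cultures. The highest KO-labelled library was far below the lowest control (log2 fold change -1.01 ± 0.06, edgeR adjusted p = 5.41e-08). Egln1, the main hydroxylase, fell slightly, with a log2 fold change of -0.24 ± 0.05 (adjusted p = 0.00161). Hif1a had 278, 272 and 266 CPM in KO-labelled cultures and 307, 274 and 277 CPM in VC-labelled cultures. These ranges overlapped, and the log2 fold change of -0.06 ± 0.05 was not called (adjusted p = 0.305). Epas1, the gene of HIF-2 alpha, had 0 counts in all 6 cultures.

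Among the genes of glucose entry, 2 fell and 1 rose. Slc2a1, the glucose transporter GLUT1, at chr4:119108711-119137983, had 66.2, 67.8 and 68.2 CPM in KO-labelled cultures, against 100.3, 96.6 and 94.6 CPM in VC-labelled cultures. Hk2, the inducible hexokinase that traps glucose in the cell, at chr6:82725025-82774454, had 143, 142 and 140.1 CPM in KO-labelled cultures, against 272, 264 and 264 CPM in VC-labelled cultures. Both genes were well apart between the labels (log2 fold change -0.52 ± 0.04 with adjusted p = 4.85e-07 for Slc2a1, and -0.91 ± 0.04 with adjusted p = 2.80e-09 for Hk2, edgeR). Hk1, the constitutive form, rose slightly, with means of 190.0 ± 6.26 and 166 ± 10.6 CPM (log2 fold change 0.20 ± 0.05, adjusted p = 0.00403), a rise close to the 0.14 of its chromosome 10. With chromosome medians taken out, Hk1 was no longer called (0.06 ± 0.05). Slc2a1 remained called at -0.24 ± 0.04 and Hk2 at -0.45 ± 0.04. By CPM, without chromosome medians taken out, Hk2 made up 51.6 ± 0.915% of the summed level per exon length of both forms in KO-labelled cultures and 69.7 ± 1.05% in VC-labelled cultures.

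Of the 13 glycolysis genes, 9 fell, 1 rose and 3 were not called. Tpi1, triose phosphate isomerase, at chr6:124810586-124814296, had 167, 172 and 163 CPM in KO-labelled cultures, against 318, 310.1 and 294 CPM in VC-labelled cultures. Pfkfb4, which makes and degrades the allosteric activator of phosphofructokinase, at chr9:108991778-109032228, had 5.27, 5.98 and 5.85 CPM in KO-labelled cultures, against 9.48, 10.5 and 11.2 CPM in VC-labelled cultures. Neither gene overlapped between the labels (log2 fold change -0.87 ± 0.04 with adjusted p = 1.03e-08 for Tpi1, and -0.86 ± 0.11 with adjusted p = 3.16e-05 for Pfkfb4, edgeR). Tpi1 lay below the median of its chromosome 6 also, and remained called with the chromosome medians taken out, at -0.42 ± 0.04.

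The 2 fructose-bisphosphate aldolases moved in opposite directions. Aldoa, the abundant muscle-type form, at chr7:126795234-126800751, had 310.3, 319.7 and 313 CPM in KO-labelled cultures, against 457, 450.4 and 436 CPM in VC-labelled cultures (log2 fold change -0.50 ± 0.04, edgeR adjusted p = 4.39e-07). Aldoc, the brain-type form, at chr11:78322968-78327781, had 12.4, 11.9 and 11.9 CPM in KO-labelled cultures, against 6.04, 5.74 and 4.54 CPM in VC-labelled cultures (log2 fold change 1.16 ± 0.11, adjusted p = 3.75e-06). Aldoc was the largest rise of the set, but it stayed the minor form, at 3.31 ± 0.119% of the summed level per exon length of both in KO-labelled cultures and 1.07 ± 0.131% in VC-labelled cultures.

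The other enzymes of the pathway shared a smaller fall. Pkm, the pyruvate kinase of most tumor cells, had means of 958 ± 56.5 CPM in KO-labelled cultures and 1272 ± 76.4 CPM in VC-labelled cultures (log2 fold change -0.40 ± 0.05). Gpi1, glucose-6-phosphate isomerase, had a log2 fold change of -0.48 ± 0.05, Pgk1, phosphoglycerate kinase, one of -0.49 ± 0.10, Eno1, enolase, one of -0.46 ± 0.06, and Pgam1, phosphoglycerate mutase, one of -0.30 ± 0.09 (edgeR adjusted p from 4.12e-06 to 0.0184). All 5 were called lower, but Pgam1 was no longer called without KO-labelled culture 2 or without KO-labelled culture 3. The phosphofructokinase subunits Pfkl and Pfkp and the regulator Pfkfb3 were not called, with log2 fold changes of 0.00 ± 0.04, -0.03 ± 0.05 and 0.00 ± 0.05. With the chromosome medians taken out, Pfkl (-0.14 ± 0.04, adjusted p = 0.0142) and Pfkfb3 (-0.25 ± 0.05, adjusted p = 0.000971) were called lower. Eno1 remained called in that setting, but at -0.18 ± 0.06 (adjusted p = 0.0289).

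Gapdh, glyceraldehyde-3-phosphate dehydrogenase, at chr6:125161715-125166467, had 5.16, 7.20 and 6.04 CPM in KO-labelled cultures, against 12.7, 15.9 and 14.2 CPM in VC-labelled cultures (log2 fold change -1.22 ± 0.12, edgeR adjusted p = 5.17e-06). With the chromosome medians taken out its log2 fold change was -0.77 ± 0.12. Both levels are low for a gene that is usually abundant. Of its 50-base words, 24.7% also occur in other annotated transcripts, and 87 other genes, 78 of them in the count table, share at least 100 such words with it. For Pgk1 the shared words made up 53.9%, for Pgam1 36.2%, for Eno1 26.0% and for Pkm 25.8%, so the levels and folds of these genes are uncertain, because counting may have dropped or split such reads. In all, 11 members shared at least 5% of their words, of which 9 fell and 1 rose, and among the other 27, of which 26 were tested, 15 fell and 3 rose. Exons of Hif1a, Car9, Slc2a1, Hk1, Gpi1, Pfkp, Aldoa, Tpi1, Gapdh, Ndrg1, Ankrd37 and Mxi1 overlap a gene of the other strand, and without stranded counting the reads of such genes cannot be told apart.

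Both genes at the exit of glycolysis fell. Ldha, which turns pyruvate into lactate, had means of 418 ± 4.10 CPM in KO-labelled cultures and 583 ± 5.36 CPM in VC-labelled cultures (log2 fold change -0.47 ± 0.04, edgeR adjusted p = 6.71e-07). Pdk1, the kinase that keeps pyruvate out of mitochondria, moved least among the genes called lower (log2 fold change -0.14 ± 0.04, adjusted p = 0.0185). It was no longer called without KO-labelled culture 3 or VC-labelled culture 2. With the chromosome medians taken out, however, the fall of Pdk1 was larger, at -0.39 ± 0.04 (adjusted p = 2.32e-05). The paired mitophagy receptors parted. Bnip3 fell, with means of 15.1 ± 0.356 and 20.6 ± 0.356 CPM (log2 fold change -0.44 ± 0.06), and Bnip3l rose, with means of 107 ± 0.664 and 89.5 ± 6.65 CPM (log2 fold change 0.26 ± 0.05). Bnip3l was no longer called in the test against a fold change of 1.2. Other transcripts share 16.5% of the 50-base words of Bnip3 and 20.8% of those of Bnip3l, so both folds are uncertain. Higd1a, a small mitochondrial protein of low oxygen, was not called (log2 fold change -0.17 ± 0.07), except with the chromosome medians taken out (-0.20 ± 0.07, adjusted p = 0.0431).

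Adm, the vasodilator peptide adrenomedullin, at chr7:110627661-110629820, had 0.579, 0.951 and 0.961 CPM in KO-labelled cultures, against 1.41, 1.61 and 1.51 CPM in VC-labelled cultures. These levels rest on 10, 14 and 21 counts against 25, 30 and 28 counts (log2 fold change -0.84 ± 0.25, edgeR adjusted p = 0.0139), and Adm was no longer called without KO-labelled culture 1. Vegfa, the main growth factor of blood vessels, fell slightly, with means of 22.5 ± 0.984 and 28.0 ± 1.22 CPM (log2 fold change -0.30 ± 0.06, adjusted p = 0.00166). Among the collagen enzymes, P4ha2, a subunit of prolyl 4-hydroxylase at chr11:54100095-54131665, had 9.50, 9.03 and 10.4 CPM in KO-labelled cultures, against 17.3, 17.3 and 16.7 CPM in VC-labelled cultures. It was apart in every library (log2 fold change -0.81 ± 0.08, adjusted p = 4.29e-06), while its paralog P4ha1 fell less (-0.34 ± 0.04) and the lysyl hydroxylase Plod2 was not called (0.04 ± 0.04).

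Among the other induced genes, Ndrg1, a stress and differentiation gene at chr15:66929318-66969640, had 200.1, 205 and 202 CPM in KO-labelled cultures, against 298, 287 and 293 CPM in VC-labelled cultures (log2 fold change -0.52 ± 0.04, edgeR adjusted p = 2.67e-07). Kdm3a, a histone H3 lysine demethylase at chr6:71588972-71632990, had 53.0, 54.3 and 51.0 CPM in KO-labelled cultures, against 75.2, 79.8 and 74.1 CPM in VC-labelled cultures (log2 fold change -0.53 ± 0.04, adjusted p = 1.16e-06). With the median of chromosome 6 taken out the fold of Kdm3a was -0.07 and it was no longer called. Ddit4, which restrains mTORC1 and also answers to stresses other than low oxygen, at chr10:59949669-59951834, went the other way, with 134, 136 and 136 CPM in KO-labelled cultures, against 77.1, 83.7 and 87.1 CPM in VC-labelled cultures. Its lowest KO-labelled library stood well above its highest control (log2 fold change 0.72 ± 0.05, adjusted p = 1.27e-07). Ankrd37 (0.43 ± 0.20) and the MYC antagonist Mxi1 (-0.13 ± 0.06) were not called.

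**Figure D2:**
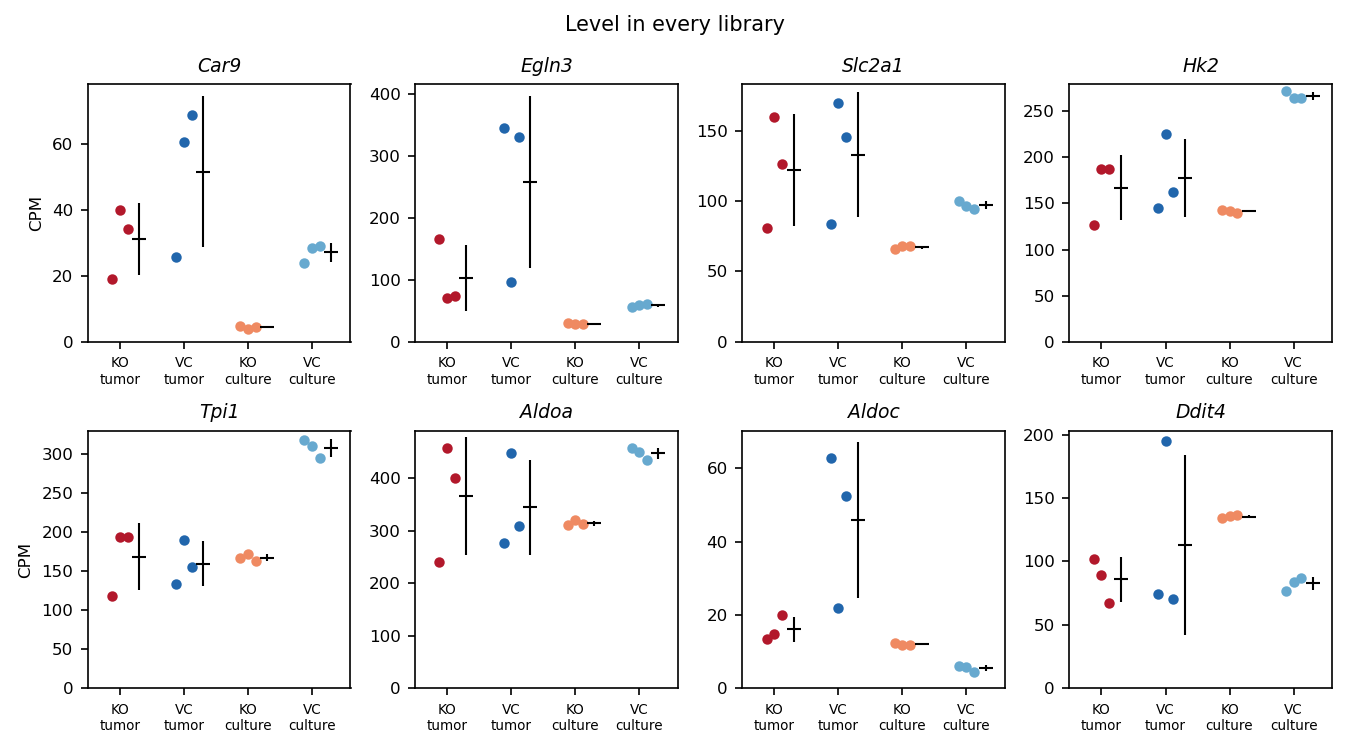
Level in CPM of 8 genes in every library, with 3 points per group in the order KO-labelled tumors, VC-labelled tumors, KO-labelled cultures and VC-labelled cultures, and the mean ± SD in black beside them. Each vertical axis starts at 0. In cultures the points of each label lie close together and apart from the other label, with Aldoc and Ddit4 higher and the other 6 lower in KO-labelled cultures. In tumors the ranges of the labels overlap except for Aldoc.

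The promoters of 5 members are shown to set genes of both directions in culture side by side. Car9 and Egln3 are among the members that fell most, Ldha fell by a middling amount, and Aldoc and Ddit4 are the members that rose most. Each is the 250 bases before the RefSeq start of transcription, 5′ to 3′ on the strand of the gene (GRCm38.p6), and capitals mark the core letters of a hypoxia response element, ACGTG or GCGTG, on either strand. Where matches on both strands overlap, as in CACGTG, they were counted apart.
Car9 promoter, chr4:43506776-43507025, plus strand: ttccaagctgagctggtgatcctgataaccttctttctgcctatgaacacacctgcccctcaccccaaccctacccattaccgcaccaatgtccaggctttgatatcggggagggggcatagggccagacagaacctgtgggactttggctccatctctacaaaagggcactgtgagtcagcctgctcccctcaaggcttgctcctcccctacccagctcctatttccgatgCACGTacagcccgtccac
Egln3 promoter, chr12:54203875-54204124, minus strand: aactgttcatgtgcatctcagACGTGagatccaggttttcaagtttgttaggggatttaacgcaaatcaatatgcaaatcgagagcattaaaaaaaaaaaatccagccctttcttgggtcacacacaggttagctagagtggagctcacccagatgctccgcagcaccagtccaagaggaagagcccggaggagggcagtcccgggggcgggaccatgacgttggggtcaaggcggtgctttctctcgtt
Ldha promoter, chr7:46845554-46845803, plus strand: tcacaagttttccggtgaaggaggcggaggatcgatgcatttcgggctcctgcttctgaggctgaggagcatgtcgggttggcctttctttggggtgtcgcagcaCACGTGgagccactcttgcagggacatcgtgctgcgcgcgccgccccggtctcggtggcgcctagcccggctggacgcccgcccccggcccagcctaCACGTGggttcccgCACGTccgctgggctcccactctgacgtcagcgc
Aldoc promoter, chr11:78322823-78323072, plus strand: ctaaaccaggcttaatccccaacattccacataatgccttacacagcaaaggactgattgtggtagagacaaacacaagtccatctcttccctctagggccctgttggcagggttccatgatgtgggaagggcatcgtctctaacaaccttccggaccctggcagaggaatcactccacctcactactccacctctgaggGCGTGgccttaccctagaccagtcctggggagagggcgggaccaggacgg
Ddit4 promoter, chr10:59951771-59952020, minus strand: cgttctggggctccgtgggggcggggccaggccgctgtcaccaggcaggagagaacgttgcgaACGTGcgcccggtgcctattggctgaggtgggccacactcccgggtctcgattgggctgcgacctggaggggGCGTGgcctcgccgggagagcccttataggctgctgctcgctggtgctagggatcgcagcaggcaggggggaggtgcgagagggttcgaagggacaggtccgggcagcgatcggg

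The single match of Car9 lay 18 to 14 bases before the start and read ACGTG on the opposite strand. Egln3 had 1 match, 229 to 225 bases before the start, and Aldoc had 1 GCGTG, 50 to 46 bases before. Ldha had 5 ACGTG matches, of which 4 formed 2 overlapping pairs, and Ddit4 had 1 of each core. A promoter was found for 34 of the 38 members, with 49 starts in all, and 38 of these, 77.6%, held either core, against 38.6% of 32851 promoters of 27025 genes. The core ACGTG was in 46.9% of the members' promoters and 16.6% of all, and GCGTG in 51.0% and 28.2%. Genes that fell in culture had a core in 72.7% of 33 promoters and the other members in 87.5% of 16 (no test was made of this). These are matches of short words and not measured binding. Since the members were chosen as genes of hypoxia and glycolysis, their share against all promoters belongs to the list and is no result of these libraries.

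Of 74 other genes of the same pathways, 50 were tested in culture, and 17 rose, 17 fell and 16 were not called. Over all genes tested in culture, 23.0% were called higher and 24.9% lower. The largest falls were in Stc1 (log2 fold change -1.31 ± 0.13), a secreted glycoprotein induced by low oxygen, Eno2 (-1.17 ± 0.21), an enolase, Pgm2 (-0.76 ± 0.05), a phosphoglucomutase, and Hmox1 (-0.73 ± 0.08), heme oxygenase. Among the largest rises were those of Vldlr (2.23 ± 0.33), a lipoprotein receptor with only 70 and 15 counts in all in KO-labelled and VC-labelled cultures, Loxl4 (0.88 ± 0.04), a lysyl oxidase, and Cited2 (0.82 ± 0.05), which competes with HIF-1 alpha for its coactivator. Among the 6 tested regulators, 4 rose, including Arnt, named here after its values were seen, the partner of the alpha subunits, with means of 63.3 ± 0.520 CPM in KO-labelled cultures and 41.4 ± 0.471 CPM in VC-labelled cultures (log2 fold change 0.62 ± 0.04, where the median of its chromosome 3 was 0.33). The median over the 50 genes was -0.03, close to the -0.01 of all genes.

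In tumors, none of the 38 members was called between the labels, as no gene of the table was (0.0% of 17153 genes by edgeR). At an unadjusted p under 0.05 there were 956 genes, or 5.57%, and 4 members, singled out after their values were seen, with negative folds in Egln3, Aldoc and Vegfa and a positive one in Epas1. DESeq2 called 66 genes, of which Aldoc was the only member. The median log2 fold change was -0.06 for the members and 0.02 for all genes. In 34 members the ranges of the labels overlapped. Aldoc, Vegfa and Egln1 had all 3 KO-labelled tumors below the control tumors, against 5.43% of all genes, and Pgam1 had all 3 above, against 4.96%. Summed over all 38 genes, the level was 3950 to 5479 CPM in KO-labelled tumors and 4121 to 5654 CPM in VC-labelled tumors.

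Values in tumors are given in the order of the titles, which are POGZ_KO_8454, POGZ_KO_8455 and POGZ_KO_8459 for KO-labelled and POGZ_VC_8447, POGZ_VC_8448 and POGZ_VC_8451 for VC-labelled tumors. Aldoc had 13.4, 14.8 and 20.03 CPM in KO-labelled tumors, against 62.8, 21.9 and 52.5 CPM in VC-labelled tumors. The gap between the closest libraries was small, with tumor POGZ_VC_8448 well below the other VC-labelled ones (log2 fold change -1.50 ± 0.38, edgeR adjusted p = 0.835; DESeq2 adjusted p = 0.0382). Vegfa had 60.0, 102 and 93.1 CPM in KO-labelled tumors, against 149, 112 and 147 CPM in VC-labelled tumors (log2 fold change -0.67 ± 0.22, adjusted p = 0.861). Egln3 had 165, 70.8 and 73.3 CPM in KO-labelled tumors, against 346, 97.3 and 330.2 CPM in VC-labelled tumors. Tumor POGZ_VC_8448 again stood apart from the other controls, and the ranges overlapped (log2 fold change -1.31 ± 0.52, adjusted p = 0.861).

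The alpha subunits had higher means in KO-labelled tumors, within overlapping ranges. Hif1a had 202, 424 and 358 CPM in KO-labelled tumors, against 256, 227 and 234 CPM in VC-labelled tumors, and tumor POGZ_KO_8454 was below all 3 controls (log2 fold change 0.46 ± 0.26, edgeR adjusted p = 0.861). Epas1, at chr17:86753700-86833410, had 40.2, 67.6 and 99.1 CPM in KO-labelled tumors, against 43.9, 37.2 and 34.0 CPM in VC-labelled tumors (log2 fold change 0.86 ± 0.31, adjusted p = 0.861). Epas1 is known as a gene of endothelial cells and macrophages, and the sums of their markers overlapped between the labels too. They were 227 to 279 CPM in KO-labelled tumors and 138 to 258 CPM in VC-labelled tumors for 6 endothelial genes, and 726 to 1663 CPM and 651 to 888 CPM for 6 genes of macrophages and monocytes. Of 47 marker genes tested, 0 were called (edgeR), as was no gene of the table, so this count does not show equal cell content. The log2 fold change was positive in 5 of 6 endothelial markers, with a median of 0.64. It was positive in 6 of 6 macrophage and monocyte markers, with a median of 0.24. Over all genes tested in tumors, 9042 of 17153 were positive. The part of these cells in the level of Epas1 was not tested.

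Of the genes that fell clearly in culture, Car9, Hk2 and Tpi1 overlapped between the labels in tumors. Vegfa and Egln1, which fell less in culture, did not overlap, as given above. Since no gene of the table was called in tumors, an absent effect and a test of low power cannot be told apart. Car9 had 19.1, 40.1 and 34.3 CPM in KO-labelled tumors, against 25.7, 60.6 and 68.8 CPM in VC-labelled tumors (log2 fold change -0.74 ± 0.40, edgeR adjusted p = 0.861). Hk2 had 126, 188 and 187 CPM in KO-labelled tumors and 145, 225 and 163 CPM in VC-labelled tumors, with a log2 fold change of -0.09 ± 0.23. Tpi1 had 119, 194 and 193 CPM in KO-labelled tumors and 134, 190.2 and 155 CPM in VC-labelled tumors, with one of 0.08 ± 0.23. The 3 KO-labelled tumors did not behave alike: against the mean of the control tumors, the median member stood at -0.47 on the log2 scale in tumor POGZ_KO_8454, with 30 of 38 below, at 0.13 in tumor POGZ_KO_8455 and at -0.03 in tumor POGZ_KO_8459, while the 3 KO-labelled cultures stood between -0.39 and -0.37 of the mean of their controls. Tumor POGZ_KO_8454 was the lowest of the KO-labelled tumors in 28 of 38 members and in all 13 glycolysis genes. Among the VC-labelled tumors, POGZ_VC_8447 was likewise the lowest in 28 of 38 members and in 10 of the 13 glycolysis genes. These medians and counts rest on CPM, without TMM scaling, and were not set beside the same values over all genes. Whether they are particular to the members or hold for the whole library was not tested. The remaining members had log2 fold changes between -0.59, in Ankrd37, and 0.42, in Pgam1, and 0 of the 64 other pathway genes tested were called.

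The difference between the effect in tumors and the effect in cultures was tested over all 12 libraries, and 1 of 38 members was called, against 2.05% of 18419 genes. This was Aldoc, higher in KO-labelled cultures and lower in KO-labelled tumors, with a difference of -2.65 ± 0.44 on the log2 scale (edgeR adjusted p = 0.0102; from 6.10e-06 to 0.0442 over the alternatives). Car9 (1.85 ± 0.47, adjusted p = 0.0752) and Tpi1 (0.95 ± 0.24, adjusted p = 0.0744) missed the threshold. The median difference was 0.30 for the members and 0.03 for all genes. The count depended on single tumors. Without KO-labelled tumor POGZ_KO_8454, 8 members were called, Aldoc with a negative difference and Hif1a, Car9, Hk2, Aldoa, Tpi1, Pgam1 and Ldha with a positive one, while the calls over all genes rose to 1588 of 19120, against 377 of 18419 with every library. Without VC-labelled tumor POGZ_VC_8448, 4 were called, adding Hk2, Tpi1 and Kdm3a, with 629 of 19006 genes called, and without VC-labelled tumor POGZ_VC_8447, 2 were called, adding Car9, with 379 of 19105 genes called.

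**Figure D3:**
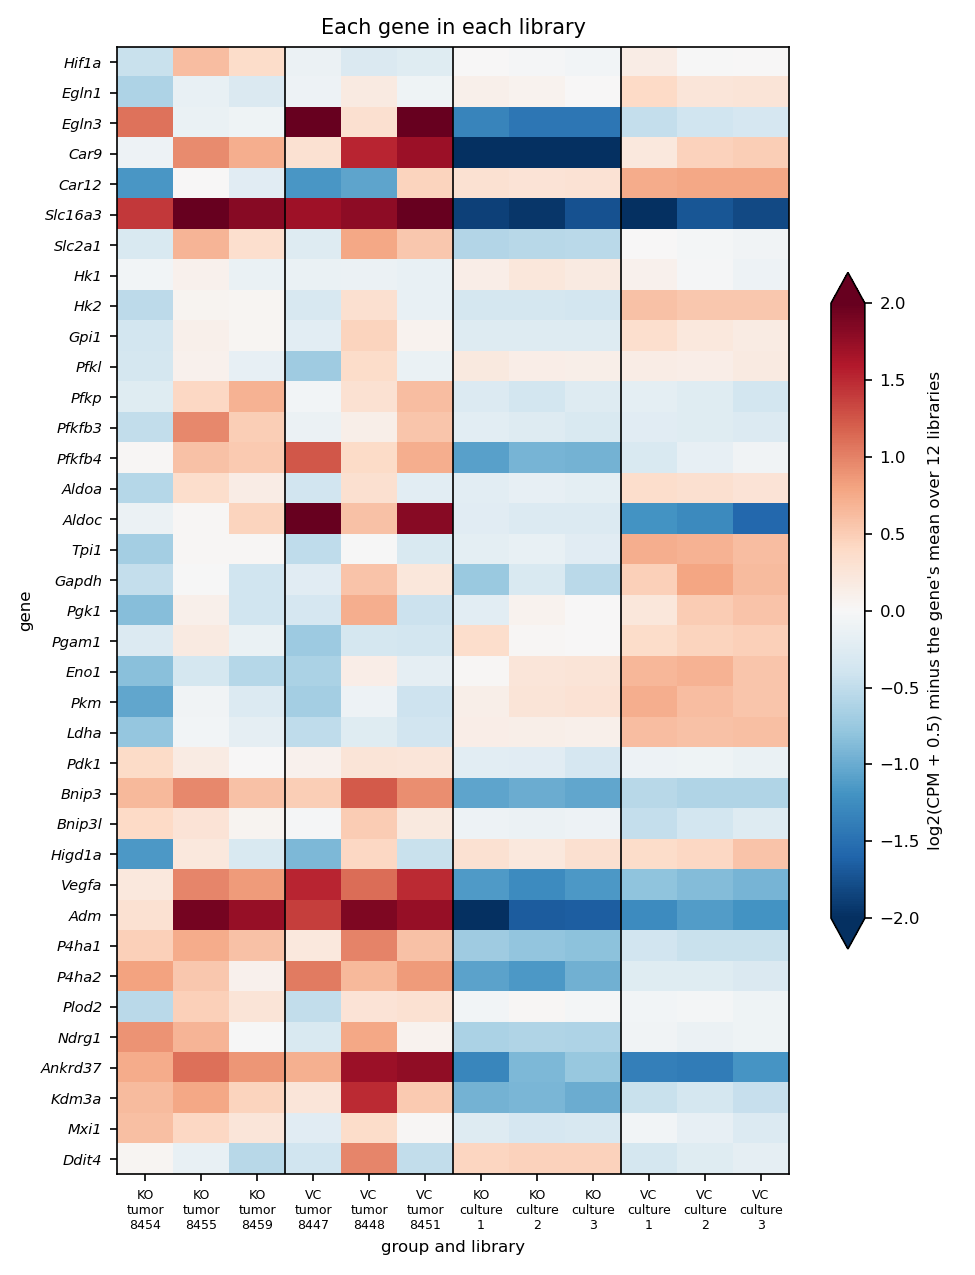
Level of 37 genes (Epas1, with no counts in culture, left out) in each of the 12 libraries, as log2(CPM + 0.5) minus the mean of the gene over the libraries, from blue (lower) to red (higher), with the colors cut at -2 and 2. Columns run from KO-labelled tumors through VC-labelled tumors and KO-labelled cultures to VC-labelled cultures. The cultures of a label look alike, the tumors of a label do not, and tumor POGZ_KO_8454 is the lowest of the KO-labelled tumors for all 13 glycolysis genes, as POGZ_VC_8447 is of the VC-labelled tumors for 10 of them. The same ranking was not made over all genes.

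Tumors and cultures of the same label are compared next, which sets growth in the animal against growth in dishes. In KO-labelled samples, 19 members rose and 4 fell in tumors over cultures, against 37.7% and 26.4% of all 18419 genes, and in VC-labelled samples 16 rose and 7 fell, against 37.9% and 27.0%. The median log2 fold change was 0.41 for the members and 0.16 for all genes in KO-labelled samples, and 0.36 and 0.17 in VC-labelled samples. Both secreted factors rose under either label, as did 2 of the 3 collagen enzymes. Of the 13 glycolysis genes, 3 rose and 2 fell in KO-labelled samples, and 3 rose and 4 fell in VC-labelled samples. Cells of the mouse, whose markers were higher in tumors, enter these folds, and their part was not tested. Among 74 other genes of the pathways, 65 were tested, of which 35 rose and 14 fell in KO-labelled samples, and 32 rose and 14 fell in VC-labelled samples.

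Epas1 showed the widest gap between tumors and cultures. It had a mean of 69.0 ± 29.4 CPM in KO-labelled tumors and 38.4 ± 5.07 CPM in VC-labelled tumors, against 0 counts in all 6 cultures. Set against a floor of 3 counts per library, this was at least 402-fold higher in KO-labelled and at least 234-fold higher in VC-labelled tumors. Slc16a3, which makes the lactate exporter MCT4 and lies at chr11:120948480-120960868, had 21.6, 23.3 and 29.6 CPM in VC-labelled tumors, against 1.02, 1.61 and 1.46 CPM in VC-labelled cultures (log2 fold change 4.21 ± 0.28, edgeR adjusted p = 2.52e-07), and its fold was 4.19 ± 0.28 in KO-labelled samples. Slc16a1, the lactate transporter MCT1, which is no member and was named after its values were seen, fell, with means of 116 ± 19.1 CPM in VC-labelled tumors and 233 ± 6.19 CPM in VC-labelled cultures (log2 fold change -0.98 ± 0.12, adjusted p = 2.02e-05).

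Adm had 11.5, 16.3 and 14.9 CPM in VC-labelled tumors, against 1.41, 1.61 and 1.51 CPM in VC-labelled cultures (log2 fold change 3.26 ± 0.39, edgeR adjusted p = 1.90e-05). Ankrd37, an ankyrin repeat gene at chr8:45996902-46005707, had 9.55, 19.4 and 20.3 CPM in VC-labelled tumors, against 1.86, 1.82 and 2.22 CPM in VC-labelled cultures (log2 fold change 3.10 ± 0.29, adjusted p = 3.64e-06). In both genes the lowest tumor was several-fold above the highest culture. Exons of Ankrd37 overlap those of Lrp2bp and Ufsp2 on the other strand, and whether reads were counted by strand is not given. Vegfa (2.31 ± 0.18), Egln3 (2.16 ± 0.43), Bnip3 (1.56 ± 0.16) and Kdm3a (1.31 ± 0.24) also rose in VC-labelled tumors, and all 4 rose in KO-labelled tumors, by 1.94 ± 0.18, 1.86 ± 0.43, 1.83 ± 0.16 and 1.61 ± 0.25.

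The largest falls in VC-labelled tumors included 3 abundant genes of glycolysis. Pkm, at chr9:59656368-59679375, had 514, 764 and 615 CPM in VC-labelled tumors, against 1354, 1261 and 1202 CPM in VC-labelled cultures (log2 fold change -0.98 ± 0.20, edgeR adjusted p = 0.00127). Ldha, at chr7:46841475-46855627, had 269.9, 327 and 295 CPM in VC-labelled tumors, against 588, 578 and 583 CPM in VC-labelled cultures (log2 fold change -0.94 ± 0.15, adjusted p = 1.60e-04). Tpi1 had 134, 190.2 and 155 CPM in VC-labelled tumors, against the 318, 310.1 and 294 CPM of VC-labelled cultures (log2 fold change -0.91 ± 0.17, adjusted p = 5.95e-04). In all 3 genes every tumor was below every culture. In KO-labelled samples the folds were -0.61 ± 0.20 for Pkm, -0.40 ± 0.15 for Ldha and 0.04 ± 0.17 for Tpi1, of which the first pair was called lower. These calls were fragile, since Ldha was no longer called when any 1 of the 3 KO-labelled cultures was left out or under RLE or upper-quartile scaling, and Pkm was no longer called without KO-labelled culture 3 or with chromosome medians taken out. The remaining large fall was in Car12, at chr9:66713686-66766845, with 17.2, 18.6 and 53.5 CPM in VC-labelled tumors, against 66.2, 68.0 and 68.0 CPM in VC-labelled cultures (log2 fold change -1.12 ± 0.38, adjusted p = 0.0224), and it was no longer called without tumor POGZ_VC_8447 or tumor POGZ_VC_8448.

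**Figure D4:**
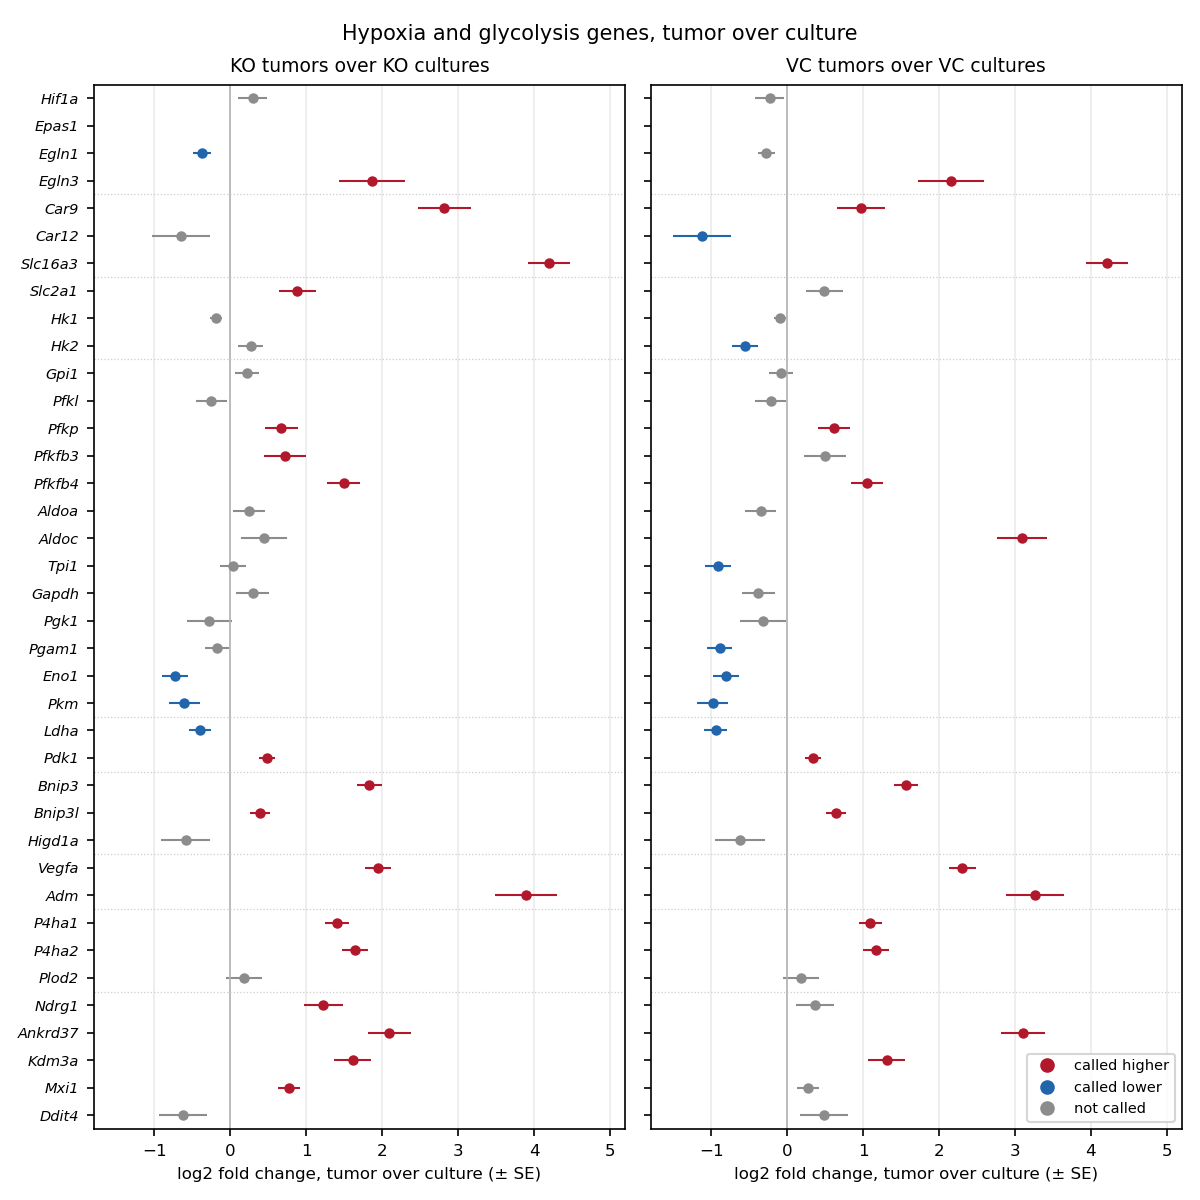
Log2 fold change of tumors over cultures for the KO-labelled samples (left) and the VC-labelled samples (right), with bars of ± 1 SE from edgeR and colors for called higher (red), called lower (blue) and not called (grey). Epas1 is left out, since it had no counts in cultures. Slc16a3 and Adm lie farthest to the right in both panels, Aldoc lies at 0.44 on the left and 3.09 on the right, and Pkm, Ldha and Eno1 are blue in both.

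Pairs of related genes show the change of balance on 1 scale, the share of a pair's summed level per exon length. Aldoc made up 3.92 ± 0.992% of the aldolase pair in KO-labelled tumors and 11.4 ± 6.51% in VC-labelled tumors (SD, n = 3 each). Car9 made up 77.5 ± 0.833% of its pair with Car12 in KO-labelled tumors and 85.2 ± 5.58% in VC-labelled tumors, against 23.4 ± 1.57% in KO-labelled and 57.0 ± 2.29% in VC-labelled cultures. The inducible Egln3 made up 58.9 ± 14.5% of its pair with Egln1 in KO-labelled tumors and 71.3 ± 17.5% in VC-labelled tumors, against 25.3 ± 0.610% in KO-labelled and 36.7 ± 2.38% in VC-labelled cultures. Aldoc, Car9 and Egln3 each had a larger mean share in tumors of either label than in cultures of the same label. The aldolase shares of KO-labelled tumors and cultures overlapped, however. Other pairs of members did not all move this way. For Hk2 in its pair with Hk1, the mean share was lower in VC-labelled tumors than in VC-labelled cultures, at 62.0% against 69.7%. In KO-labelled tumors it was higher than in KO-labelled cultures, at 58.9% against 51.6%. Shares of P4ha2 in its pair with P4ha1 overlapped between tumors and cultures under both labels, while those of Bnip3 over Bnip3l and Pfkp over Pfkl were higher in tumors. Levels per kilobase of exon were highest for Aldoa and Pkm in tumors, at 126 ± 38.4 and 124 ± 39.2 CPM per kb in KO-labelled and 118 ± 31.1 and 126 ± 25.1 CPM per kb in VC-labelled tumors, which do not differ beyond their SD, and for Pkm in cultures, at 192 ± 11.3 and 254 ± 15.3 CPM per kb in KO-labelled and VC-labelled cultures.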

How the data were processed

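RNA of 12 libraries of 4T1 cells (Qiagen RNAeasy, then a KAPA ribosomal RNA depletion kit, per the labels' protocols) was sequenced, and the authors deposited raw counts per gene for cultures and for tumors. Per the submitters' processing notes, the tools were Trimmomatic 0.32, STAR 2.3.0e and featureCounts 1.4.4 with genome mm10. Their settings, the annotation release and the use of strand are not given in the sources used here. Of 39017 gene IDs, 37693 matched GENCODE M21 (GRCm38, the same build as mm10), which gave coordinates and exon lengths.

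All genes were fitted with edgeR 4.0.16 in R 4.3.3 (filterByExpr, TMM scaling, quasi-likelihood F test, Benjamini-Hochberg adjusted p under 0.05), cultures and tumors apart, and all 12 libraries together for the difference of the effects and for tumors over cultures. The SE is the log2 fold change divided by the root of F. CPM scales counts to the library total. DESeq2 1.42.0, other scalings and filters, a test against a fold change of 1.2, a threshold of 0.01, chromosome medians (genes above 3 on the log2 CPM scale) taken out, and each library left out were alternatives. The fits were checked on simulated data. Shared 50-base words were counted over GENCODE transcripts, and figures were drawn with matplotlib 3.10.9.

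Members and lists were chosen with earlier results of these data known. Values in every sample are given for members called with a log2 fold change of at least 0.5 in either direction in culture, for those called in the difference, for the 4 largest rises and falls of VC-labelled tumors over cultures, and for Hif1a and Epas1. No deposited sample column was left unused. 1 result among the other pathway genes is not reported here.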

Additional observations from a re-analysis of the deposited data

Results flagged for a closer look

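Aldoc was the member whose difference between KO-labelled and VC-labelled samples was not the same in tumors and in cultures. The interaction of label and growth site was -2.65 on the log2 scale (edgeR quasi-likelihood test, Benjamini-Hochberg adjusted p = 0.0102), from a log2 fold change of -1.50 in tumors and 1.16 in cultures. All 3 KO-labelled tumors were below the VC-labelled ones, and all 3 KO-labelled cultures were above the VC-labelled ones. The tumor fold by itself was not called by edgeR, and VC-labelled tumor POGZ_VC_8448 lay close to the KO-labelled tumors.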

How the results depend on the processing

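Of the 28 members called in culture, 28 kept their call and direction under other scalings, other filters on low counts and the removal of ribosomal and small RNA genes, 26 with DESeq2, 26 with chromosome medians taken out, 25 at an adjusted p under 0.01, 20 against a fold change of 1.2 and 7 with all 12 libraries in 1 fit. Leaving out 1 library gave 26 to 29 called members in culture, 0 in tumors, 1 to 8 for the difference, 20 to 27 for VC-labelled tumors over cultures and 19 to 25 for KO-labelled tumors over cultures. DESeq2 called 1 member in tumors (66 of 17153 genes) and 4 in the difference (953 of 18419 genes, against 377 by edgeR), and at an adjusted p under 0.01 the difference had 0 members (125 genes). The log2 fold change of Pogz in culture was 0.44 with all 12 libraries in 1 fit (edgeR adjusted p = 0.098). It was 0.12 in culture with chromosome medians taken out (edgeR adjusted p = 0.0404). In tumors it was -0.0088 with chromosome medians taken out and ran from -0.068 to 0.25 when 1 library was left out, at -0.0678 without KO-labelled tumor POGZ_KO_8454 and -0.00505 without VC-labelled tumor POGZ_VC_8447. The cause of these changes was not tested. With the culture number as a replicate block, 28 members were called in culture, and Pogz had 0.45. Same-numbered cultures did not deviate together (correlations of -0.158, 0.0339 and 0.0711 over 10605 genes), so they share only a number. The VC-labelled tumors had the fewest counts, which limits their precision, and Adm rests on 10 to 30 counts per culture.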
